A study of Mus musculus with 18 samples.

Results

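The zinc finger genes of mouse chromosome 7 are the protein-coding genes of that chromosome whose RefSeq symbol is Zfp followed by digits. The rule uses position and name only, and it found 93 genes among the 21887 protein-coding genes of chromosomes 1 to 19, X and Y, against 304 genes named in the same way on the other chromosomes. Of the 93, 3 carry a letter after the digits (Zfp607a, Zfp607b and Zfp780b). They lie in 17 groups separated by more than 1 Mb, the largest with 15, 14, 10, 10 and 10 genes, and 45 of the 93 share bases within 2 kb of their ends with another protein-coding gene, 29 of them with another Zfp gene of the list, so that neighbours are not independent measurements.

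The name Zfp covers several kinds of protein. Most proteins of this name bind DNA through tandem C2H2 zinc fingers, and many of those encoded in large clusters on mouse chromosome 7 also carry a KRAB domain, which recruits the corepressor TRIM28 and, with it, the H3K9 methyltransferase SETDB1. KRAB zinc finger proteins are known in embryonic stem cells as silencers of transposable elements and imprinted loci. Others on the list have different functions, such as Zfp36, which encodes the RNA-binding protein tristetraprolin. H3K4me3 is deposited at promoters, and H3K27ac at active promoters and enhancers.

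The study mapped both marks by chromatin immunoprecipitation and sequencing in mouse embryonic stem cells on a C57BL/6 background. The 3 genotypes were Mettl3 Control, Mettl3 KO1 and Mettl3 KO2, where Mettl3 is the gene of the catalytic subunit of the RNA N6-methyladenosine writer. All cells, Control included, grew with LIF and the GSK3 and MEK inhibitors CHIR99021 and PD0325901. Each genotype and mark had 2 libraries, 12 in all. The labels do not say whether replicates are separate cultures or what the Control line is beyond its name. P-values therefore measure the spread between libraries that may be technical, and each knockout is 1 labelled line.

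The measure is the number of bases covered by the authors' peaks on mm10, either within 2 kb of the start or the end of a gene (gene ends) or from start to end (gene body). The authors called from 29973 to 32957 H3K27ac peaks per Control library, from 39048 to 40210 per KO1 library and from 61383 to 65398 per KO2 library. For H3K4me3 the Control range was 81608 to 83644, the KO1 range 69320 to 69995 and the KO2 range 66483 to 72303. The share of H3K27ac peaks on chromosome 7 was 6.10% and 6.36% for Control, 6.58% and 6.70% for KO1, and 7.06% and 7.17% for KO2. Read depth is not given in the peak lists. Covered bp depend on how many peaks were called in a library, and the part of depth or enrichment in the changes was not tested. The KO1 and KO2 comparisons share the same Control libraries and are not independent of each other. Markers were those of stem cells: H3K27ac met the ends of 7 of 8 stem cell marker genes in each Control and KO1 library and 8 of 8 in each KO2 library, and was at 0 at all 6 fibroblast and all 4 primitive endoderm markers in every library. It met 1 of the 3 trophectoderm markers in 3 knockout libraries and 1 of the 2 neuroectoderm markers in 1 KO2 library.

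Promoters are shown for 7 genes, chosen because the results below turn on them. RefSeq lists a promoter of 300 bases (250 before and 50 after a transcription start, GRCm38.p6) for 85 of the 93 genes. The first 6 have their CpG dinucleotides in capitals. Zfp93 (chr7:24270168-24270467, plus strand) gained H3K27ac in both knockouts and Zfp607a (chr7:27860335-27860634, plus strand) in KO2. Zfp819 (chr7:43606919-43607218, plus strand) carried steady H3K27ac.
Zfp93: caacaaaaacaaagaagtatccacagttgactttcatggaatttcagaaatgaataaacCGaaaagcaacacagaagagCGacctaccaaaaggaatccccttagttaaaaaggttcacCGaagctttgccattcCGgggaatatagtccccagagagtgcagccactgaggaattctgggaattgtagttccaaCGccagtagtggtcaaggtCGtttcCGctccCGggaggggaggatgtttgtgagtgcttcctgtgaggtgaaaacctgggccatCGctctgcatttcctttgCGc
Zfp607a: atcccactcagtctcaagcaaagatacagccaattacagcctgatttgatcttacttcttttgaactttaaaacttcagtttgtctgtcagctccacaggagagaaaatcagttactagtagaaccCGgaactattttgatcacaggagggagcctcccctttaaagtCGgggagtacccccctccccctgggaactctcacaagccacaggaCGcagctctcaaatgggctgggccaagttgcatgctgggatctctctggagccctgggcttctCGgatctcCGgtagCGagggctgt
Zfp819: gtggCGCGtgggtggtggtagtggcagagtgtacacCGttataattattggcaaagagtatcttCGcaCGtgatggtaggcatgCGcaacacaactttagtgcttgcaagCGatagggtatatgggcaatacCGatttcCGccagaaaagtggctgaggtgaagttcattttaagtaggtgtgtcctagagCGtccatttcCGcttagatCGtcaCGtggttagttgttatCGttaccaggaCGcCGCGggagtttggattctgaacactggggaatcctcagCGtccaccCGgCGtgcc

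Zfp420 (chr7:29859762-29860061, plus strand) and Zfp773 (chr7:7136706-7137005, minus strand) had more H3K4me3 at their ends in KO2. Most of that gain lay away from the listed starts. Within 2 kb of the start, mean H3K4me3 was 554.5 bp in Control and 608 bp in KO2 at Zfp420. At Zfp773 it was 407 and 571.5 bp. Zfp541 (chr7:16071595-16071894, plus strand) was the gene with no H3K4me3 at its listed start.
Zfp420: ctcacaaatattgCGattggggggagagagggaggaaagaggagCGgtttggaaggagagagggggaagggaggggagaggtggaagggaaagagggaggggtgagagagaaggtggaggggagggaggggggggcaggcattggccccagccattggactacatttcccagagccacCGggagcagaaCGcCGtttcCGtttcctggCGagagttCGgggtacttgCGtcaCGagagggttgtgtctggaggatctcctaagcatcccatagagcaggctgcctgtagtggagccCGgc
Zfp773: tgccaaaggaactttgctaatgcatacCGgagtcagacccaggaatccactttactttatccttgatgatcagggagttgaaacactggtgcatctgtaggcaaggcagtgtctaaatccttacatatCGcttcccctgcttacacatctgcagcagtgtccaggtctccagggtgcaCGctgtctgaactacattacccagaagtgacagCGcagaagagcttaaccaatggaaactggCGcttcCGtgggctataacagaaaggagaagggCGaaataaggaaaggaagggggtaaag
Zfp541: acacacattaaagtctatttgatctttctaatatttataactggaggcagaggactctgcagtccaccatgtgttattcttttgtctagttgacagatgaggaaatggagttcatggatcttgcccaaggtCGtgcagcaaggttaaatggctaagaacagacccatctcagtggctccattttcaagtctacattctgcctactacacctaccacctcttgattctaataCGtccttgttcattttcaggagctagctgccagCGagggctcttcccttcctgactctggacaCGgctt

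The promoter of Zfp141 (chr7:42505704-42506003, minus strand) has in capitals the 10 letters searched as the motif of NRF1, a transcription factor of housekeeping promoters. Their first base lies 76 bases before the start.
Zfp141: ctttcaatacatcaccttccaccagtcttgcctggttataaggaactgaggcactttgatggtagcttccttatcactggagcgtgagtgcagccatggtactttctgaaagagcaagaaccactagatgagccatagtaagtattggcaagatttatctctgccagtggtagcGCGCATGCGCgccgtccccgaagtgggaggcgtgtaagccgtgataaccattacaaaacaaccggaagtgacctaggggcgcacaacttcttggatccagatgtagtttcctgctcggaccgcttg

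The promoters differed widely in CpG number, with 10 in Zfp93, 6 in Zfp607a, 20 in Zfp819, 11 in Zfp420, 7 in Zfp773 and 4 in Zfp541. Over the 85 promoters the median was 14 CpG, with quartiles at 8 and 19, and over all 17492 protein-coding promoters it was 13, with quartiles at 4 and 24. Motifs were searched on both strands as exact letters. The NRF1 motif, spelled in the Zfp141 promoter, was found in 6 of the 85 promoters (7.06%; Zfp329, Zfp30, Zfp82, Zfp141, Zfp658 and Zfp719) and in 1.33% of all promoters. ATGGCG, the core of the YY1 motif, was found in 18.8% and 11.2%, and GGGCGG, a GC box, in 37.6% and 46.3%. The NRF1 letters contain neither of the other motifs on either strand, and a match is a description of letters. Across the 85 genes, Spearman's rho between CpG number and covered bp within 2 kb of the listed start was 0.28 for H3K4me3 and 0.22 for H3K27ac in Control, across genes that share libraries and base composition.

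H3K4me3 marked nearly all of these genes in every genotype, and H3K27ac marked more of them in the knockouts. Within 2 kb of a gene end, H3K4me3 was found for 87 genes in both Control libraries, 88 in both KO1 libraries and 88 in both KO2 libraries. H3K27ac was found for 45, 55 and 73 genes. At the start listed by RefSeq, H3K4me3 was present in all 6 libraries for 84 of the 85 genes with a listed start. The exception was Zfp541, a germ cell factor, at 0 bp there and over its whole body in all 6 libraries. Zfp61 and Zfp790 had no H3K4me3 at their ends in any library, but Zfp61 carried between 1031 and 1681 bp and Zfp790 between 1217 and 1566 bp at the listed start in all 6 libraries. For 13 genes, these included, the listed start lies more than 2 kb from both annotated ends. Zfp541, Zfp61 and Zfp790 were singled out after their values were seen. At the opposite end of the gene, only 16 genes had H3K4me3 in all 6 libraries. In the authors' ranking of peaks by fold enrichment, the strongest H3K4me3 peak of a Zfp gene sat at a median percentile of 91.0 and 90.3 of its Control list, against 91.1 and 91.0 over all genes with a peak. For H3K27ac it sat at 72.3 and 76.7, against 76.6 and 77.9.

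The median gene of the list carried 1531 and 1527 bp of H3K4me3 at its ends in the Control libraries, 1407 and 1425 bp in KO1, and 1454 and 1519 bp in KO2. Median H3K27ac was 177 and 202 bp (Control), 407 and 259 bp (KO1) and 907 and 943 bp (KO2). The H3K27ac medians of the 3 genotypes did not overlap and had the same order as the number of peaks in the lists. The broadest H3K4me3 in Control was at Zfp553 (6220 and 5809 bp), Zfp524 (5038 and 4858 bp), Zfp36 (4939 and 3847 bp), Zfp865 (4260 and 4183 bp) and Zfp146 (4307 and 3712 bp). The broadest H3K27ac was at Zfp553 (3306 and 3089 bp), Zfp568 (2717 and 2359 bp), Zfp143 (1866 and 1874 bp), Zfp819 (1761 and 1869 bp) and Zfp428 (1092 and 2171 bp). The windows of Zfp553, Zfp524, Zfp865 and Zfp428 include bases of a neighbouring gene.

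**Figure D1:**
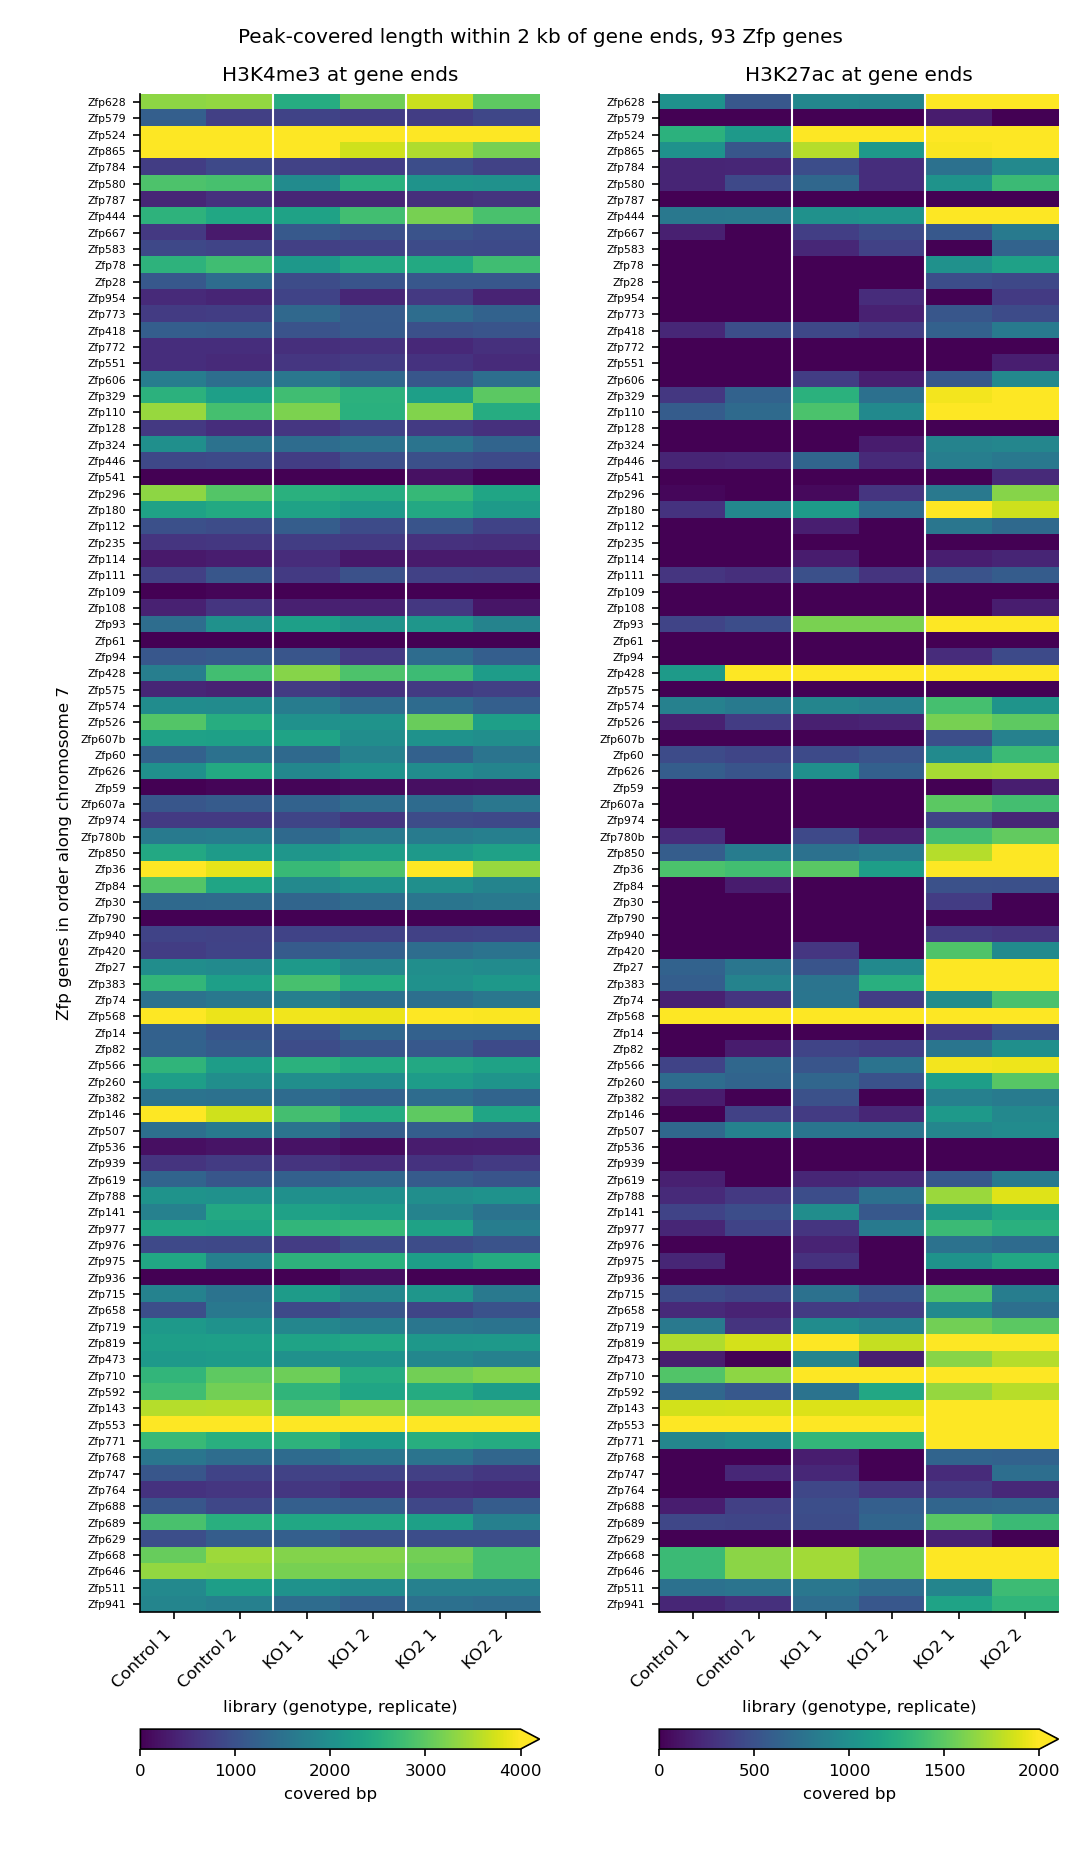
Covered bp within 2 kb of the gene ends for the 93 Zfp genes (lines of the picture, in order along chromosome 7) in the 6 libraries of each mark (columns), with colour giving covered bp and values above the end of a scale in its last colour. H3K4me3 is present in nearly every line in all libraries, while H3K27ac is at 0 in both Control libraries for 37 genes and brightens in the KO2 columns.

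At gene ends, H3K27ac was the mark that changed. It rose in KO2 at 59 of the 66 Zfp genes that passed the filter of a mean of 200 covered bp, and fell at none (limma, Benjamini-Hochberg adjusted p under 0.05 over all 9468 genes tested). The background was 86.7% of all genes tested higher and 0.0422% lower in KO2, so that the count is not particular to zinc finger genes. The filter left out 27 of the 93 genes. A further 16 averaged under 200 bp over the Control and KO1 libraries, passed only through KO2 and had to differ, so that their calls support nothing. Zfp78, Zfp324, Zfp296, Zfp607a, Zfp420, Zfp975 and Zfp764 are among them, and without them 45 of 50 were called. The median log2 change of covered bp + 500 was 1.11 (quartiles 0.70 and 1.30) over the 66 genes. It was 0.77 over the tested Zfp genes of other chromosomes, 0.94 over the other genes of chromosome 7 and 0.82 over all genes tested. The median of 1.11 includes the 16 genes that passed only through KO2 and was not recomputed without them. The same filter was applied to every group, and the medians are descriptions. After quantile normalization, which gives every library the same distribution of values, 7 genes were higher and 3 lower in KO2 (7.96% and 8.01% of all genes), and the medians became 0.21 over the Zfp genes and −0.05 over all genes. The 7 were Zfp110, Zfp524, Zfp607a, Zfp710, Zfp78, Zfp788 and Zfp93. The 3 were Zfp111, Zfp507 and Zfp819. The count was 43 without KO2 replicate 1 and 39 without KO2 replicate 2.

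The filter can be avoided by choosing genes through the other mark. Among the 87 Zfp genes whose ends averaged 200 bp of H3K4me3 or more, both KO2 libraries had more H3K27ac than both Control libraries at 73 (83.9%). The same held for 78.0% of all 13365 genes chosen in that way, 77.8% of the 261 Zfp genes of other chromosomes and 80.7% of the 982 other genes of chromosome 7. For KO1 the numbers were 31 of 87 (35.6%), against 29.5% of all genes. Over all 93 genes, no Zfp gene had less H3K27ac in both KO2 libraries than in both Control libraries, and 0.0777% of all 21887 genes did.

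Zfp93, whose promoter is given above, had the largest change and was the one gene called in each knockout line. It carried 413 and 471 bp of H3K27ac in Control, 1601 and 1597 bp in KO1, and 3452 and 2913 bp in KO2. The 3 genotypes did not overlap. The log2 change was 1.16 ± 0.12 (SE) in KO1 (limma adjusted p = 0.0219) and 1.96 ± 0.12 in KO2 (adjusted p = 0.000464), and the difference of KO2 from KO1 was 0.81 ± 0.12 (adjusted p = 0.00279). The KO1 call was lost without any 1 of the 6 libraries, with adjusted p between 0.0504 and 0.134. It was the only Zfp gene called in KO1, where 1.78% of all genes were called, 1.74% higher and 0.0422% lower. H3K4me3 at Zfp93 was 1429 and 2025 bp in Control, 2258 and 2049 bp in KO1, and 2096 and 1793 bp in KO2, and its change was not called in either line. Within 2 kb of the listed start alone, mean H3K27ac at Zfp93 was 109 bp in Control, 706 bp in KO1 and 1530.5 bp in KO2.

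Other Zfp genes were at 0 in Control and had an H3K27ac peak in KO2 alone. Of the 37 Zfp genes with no H3K27ac at their ends in either Control library, 17 were covered in both KO2 libraries and 3 in both KO1 libraries. Genes at 0 in Control can only rise. Among those of them with a mean of 200 bp of H3K4me3, 17 of 31 Zfp genes (54.8%) and 46.8% of all 4883 genes were covered in both KO2 libraries, and 3 of 31 (9.68%) and 11.8% in both KO1 libraries. At Zfp607a H3K27ac was 0 bp in the Control and KO1 libraries and 1498 and 1401 bp in KO2. At Zfp78 it was 0 bp in the same 4 libraries and 1008 and 1147 bp in KO2. These peaks lay on promoters that already carried H3K4me3, which at Zfp607a covered 1068 and 1148 bp in Control and 1406 and 1580 bp in KO2, and at Zfp78 2587 and 2777 bp and 2437 and 2780 bp. On the scale with 500 bp added, the change at Zfp607a was 1.96 ± 0.14 (SE) and that at Zfp78 was 1.66 ± 0.14, both given as descriptions. With 100 bp added they became 3.95 and 3.56, so that the size of such a change depends on the number added. Zfp607a shares end bases with Zfp59 and Zfp974, and Zfp78 with Zfp28. The Zfp78 values take in the Zfp28 promoter. Within 2 kb of the Zfp78 start alone, mean H3K4me3 was 1417.5 bp in Control and mean H3K27ac 626 bp in KO2. Within 2 kb of the Zfp28 start these means were 1264.5 and 451.5 bp.

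Further genes had low values in Control and higher ones in KO2. Zfp473, which encodes a protein of histone pre-mRNA processing (ZFP100), went from 164 and 0 bp in Control to 913 and 166 bp in KO1 and 1647 and 1778 bp in KO2, a change in KO2 of 1.94 ± 0.34 (adjusted p = 0.0023). Zfp296, a factor of pluripotent cells, went from 33 and 0 bp to 54 and 312 bp in KO1 and 809 and 1633 bp in KO2 (1.69 ± 0.28, a description), in a window that it shares with Gemin7 and Clasrp. Zfp788 went from 241 and 331 bp to 470 and 742 bp and then to 1700 and 1902 bp (1.55 ± 0.17, adjusted p = 0.000624). In each of the 3 genes the KO2 libraries lay above all other libraries, and the KO1 libraries lay above both Control libraries. The 3 genes were named for large changes in the same libraries, so that this is a description. Zfp780b (253 and 0 bp in Control, 444 and 176 bp in KO1, 1402 and 1518 bp in KO2) and Zfp324 (0 and 0 bp, 0 and 150 bp, 893 and 915 bp) had KO2 changes of 1.67 ± 0.25 (adjusted p = 0.00134) and, as a description, 1.49 ± 0.17. Zfp524, next to Fiz1 and Zfp865, had 1289 and 1075 bp in Control, 2774 and 2010 bp in KO1 and 4331 and 4272 bp in KO2. Its change was 0.77 ± 0.14 in KO1 (adjusted p = 0.0515) and 1.52 ± 0.14 in KO2 (adjusted p = 0.000515).

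Zfp819, Zfp507, Zfp143 and Zfp553 had KO2 changes below the median of the tested Zfp genes, which includes the genes that passed the filter only through KO2. Zfp819, a KRAB zinc finger gene of pluripotent cells, carried 1761 and 1869 bp in Control, 2026 and 1827 bp in KO1, and 2033 and 2172 bp in KO2. Its KO2 change was 0.17 ± 0.10 (adjusted p = 0.145), while after quantile normalization it was called lower. Zfp507 had 672 and 889 bp, 775 and 772 bp, and 921 and 966 bp, a KO2 change of 0.18 ± 0.15 (adjusted p = 0.27) that was also called lower after quantile normalization. Zfp143, a promoter-binding activator, had 1866 and 1874 bp in Control, 1897 and 1894 bp in KO1, and 2990 and 2901 bp in KO2, and rose in KO2 by 0.54 ± 0.09 (adjusted p = 0.00168). Zfp553 had 3306 and 3089 bp, 2751 and 2208 bp, and 3881 and 4276 bp, and rose in KO2 by 0.31 ± 0.11 (adjusted p = 0.0327). After quantile normalization the changes at Zfp143 and Zfp553 were below 0. By contrast, Zfp36 had 1431 and 1397 bp in Control, 1491 and 1119 bp in KO1 and 3989 and 3141 bp in KO2, a KO2 change of 1.08 ± 0.15 (adjusted p = 0.000975), close to that median. Zfp536, a repressor of neuronal differentiation genes, had no H3K27ac at its ends in any library. The other 10 genes without any were Zfp787, Zfp772, Zfp128, Zfp235, Zfp109, Zfp61, Zfp575, Zfp790, Zfp939 and Zfp936. At listed starts inside the gene, however, H3K27ac covered between 539 and 1680 bp at Zfp787 and between 152 and 1155 bp at Zfp936 over all 6 libraries, and between 159 and 522 bp at Zfp61, Zfp790 and Zfp109 in KO2.

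**Figure D2:**
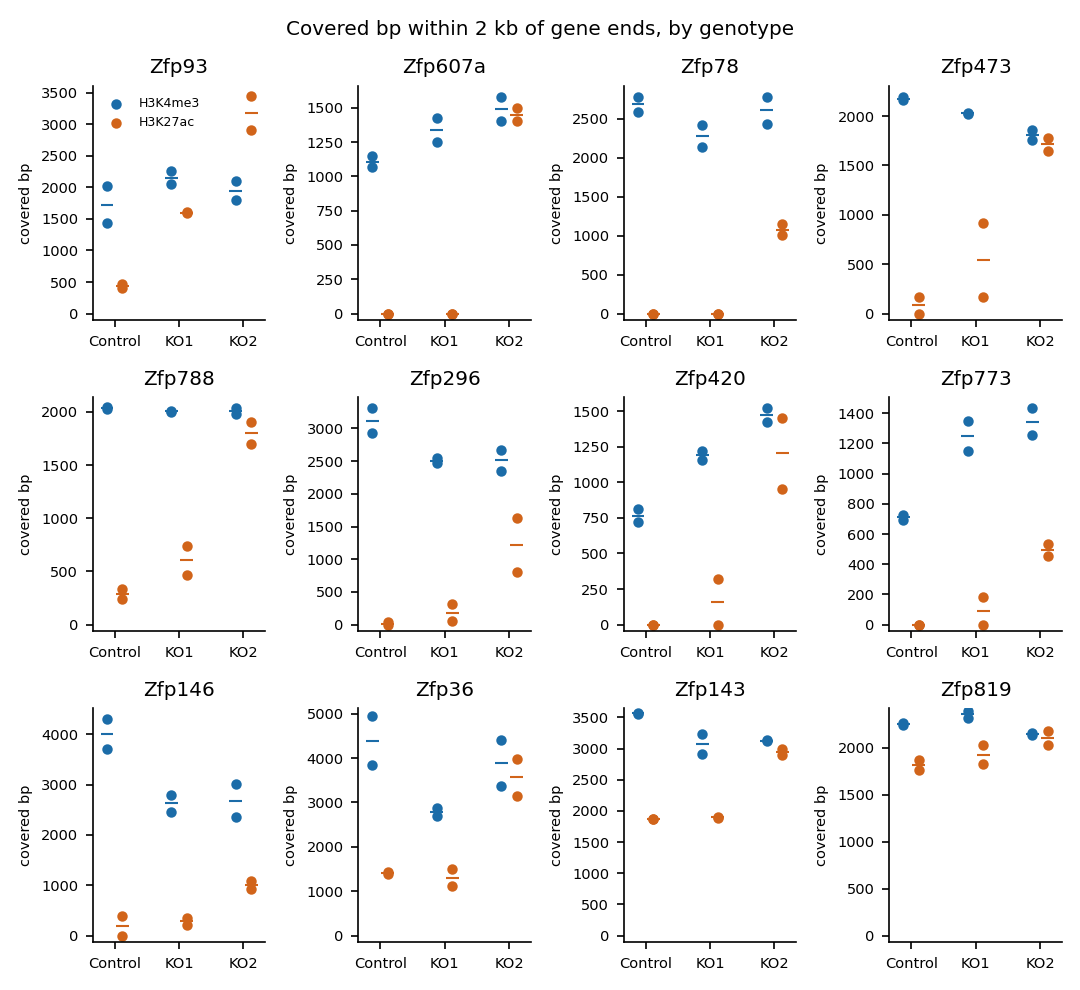
Covered bp within 2 kb of the gene ends at 12 named Zfp genes, with 1 point per library and a bar at the mean of the 2 libraries of a genotype (H3K4me3 and H3K27ac in different colours). H3K27ac at Zfp607a and Zfp78 is 0 bp in Control and KO1 and over 1000 bp in KO2, at Zfp93 it steps up in both lines, and at Zfp819 it stays between 1761 and 2172 bp.

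KO2 also exceeded KO1. H3K27ac at gene ends was higher in KO2 than in KO1 at 49 of the 66 tested Zfp genes and lower at none. Of all genes tested, 68.7% were higher and 0.0528% lower. Without the 16 Zfp genes that passed the filter only through KO2, 36 of 50 were higher. After quantile normalization 5 were higher (Zfp36, Zfp526, Zfp607a, Zfp710 and Zfp78; 4.85% of all genes) and 2 lower (Zfp764 and Zfp819; 2.61%). The count was 14 without KO2 replicate 1 and 15 without KO2 replicate 2. The largest differences were at Zfp607a (1.96), Zfp78 (1.66) and Zfp526 (1.58 ± 0.17, adjusted p = 0.00138). Those of Zfp607a and Zfp78 are descriptions, since both genes passed the filter only through KO2. Zfp526 had 175 and 196 bp in KO1, 1587 and 1501 bp in KO2 and between 187 and 356 bp in Control. With both lines averaged, 55 of the 66 genes were higher than Control and none lower, against 63.7% of all genes higher and 0.0528% lower. Without the 16 genes that passed only through KO2, 41 of 50 were higher. Quantile normalization left 3 (Zfp524, Zfp710 and Zfp93), beside 2.11% of all genes higher, and an equal number of peaks per list 32 of 61 tested (52.5%), beside 34.8% of all genes. Leaving out Control replicate 1, KO2 replicate 1 or KO2 replicate 2 gave 29, 22 and 23. Without Control replicate 2 the count was 37, and it was 44 and 47 without KO1 replicate 1 and KO1 replicate 2.

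**Figure D3:**
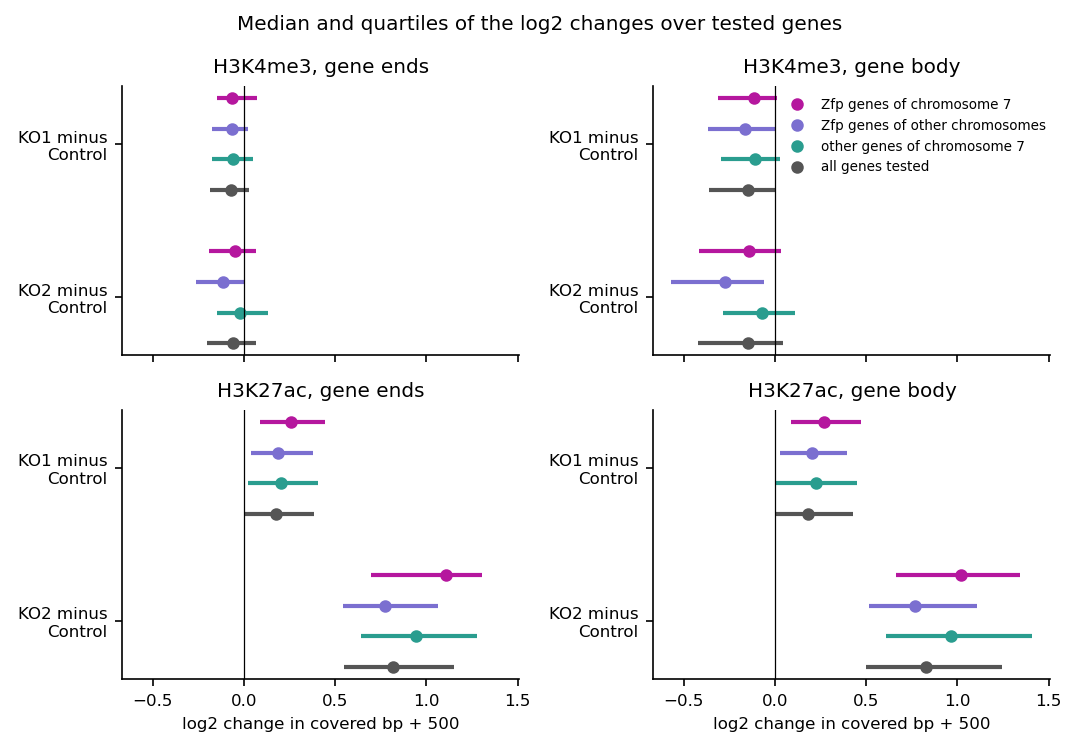
Median (point) and quartiles (line) of the log2 change in covered bp + 500 for KO1 and KO2 minus Control, over the tested genes of 4 groups, for both marks at gene ends and over gene bodies. The Zfp genes of chromosome 7 have H3K27ac medians of 0.26 in KO1 and 1.11 in KO2 at gene ends, against 0.18 and 0.82 over all genes tested. These Zfp medians include genes that passed the filter only through KO2. The H3K4me3 medians of the Zfp genes are just below 0.

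H3K4me3 at gene ends changed at few Zfp genes. Of 87 tested genes 2 were higher and 0 lower in KO2 (background 4.64% of 13362 genes, 1.09% higher and 3.55% lower). In KO1 none was called by limma, where 1.26% of all genes were called (0.187% higher and 1.08% lower). An unadjusted p under 0.05 was found for 14 of the 87 (16.1%) and 17.8% of all genes, and 1 gene, Zfp93, was called when each list was reduced to an equal number of peaks. With both lines averaged, 2 were higher and 1 lower, against 0.756% and 3.24% of all genes. Between KO2 and KO1 none was called by limma, where 0.292% of all genes were (0.217% higher and 0.0748% lower), and an unadjusted p under 0.05 was found for 8 of the 87 (9.20%) and 14.2% of all genes. The median change over the 87 genes was −0.07 in KO1 and −0.05 in KO2, and over all genes it was −0.07 and −0.06.

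The genes that rose were Zfp420, the human homologue of which restrains p53, and Zfp773. At Zfp420 H3K4me3 covered 720 and 811 bp in Control, 1154 and 1223 bp in KO1, and 1427 and 1523 bp in KO2, with no overlap between genotypes. The change was 0.42 ± 0.10 (SE) in KO1 (adjusted p = 0.0978) and 0.64 ± 0.10 in KO2 (adjusted p = 0.023). H3K27ac at Zfp420 was 0 and 0 bp in Control, 317 and 0 bp in KO1, and 1450 and 955 bp in KO2. At Zfp773 H3K4me3 covered 695 and 725 bp in Control, 1352 and 1147 bp in KO1, and 1436 and 1253 bp in KO2, a KO2 change of 0.61 ± 0.11 (adjusted p = 0.0334). Its H3K27ac was 0 and 0 bp in Control, 0 and 186 bp in KO1, and 533 and 455 bp in KO2. Neither KO2 call held without any 1 of the 6 libraries (adjusted p between 0.0521 and 0.12 at Zfp420, and between 0.0613 and 0.143 at Zfp773), with windows of 1 kb, or over the start window alone. Zfp667 was higher by value but not called, at 666 and 296 bp in Control, 1116 and 997 bp in KO1 and 1018 and 946 bp in KO2 (mean change 0.66 ± 0.16, adjusted p = 0.064), and it was called after quantile normalization.

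The gene that fell was Zfp146, whose human homologue consists almost entirely of zinc fingers. H3K4me3 at its ends covered 4307 and 3712 bp in Control, 2797 and 2457 bp in KO1, and 3005 and 2356 bp in KO2, a mean change of −0.52 ± 0.10 (SE; adjusted p = 0.0425). The Control libraries lay above all 4 knockout libraries. At the same ends H3K27ac went from 0 and 383 bp in Control to 348 and 213 bp in KO1 and 1076 and 932 bp in KO2, a mean change of 0.70 ± 0.24 (adjusted p = 0.0375), a call that held only without Control replicate 2 among the 6 leave-outs (changes between 0.29 and 1.11, adjusted p between 0.0138 and 0.226). The H3K4me3 call held without KO2 replicate 1 and was lost without any of the other 5 libraries, with adjusted p between 0.0342 and 0.229. Zfp36 was lower by value in KO1 only, at 4939 and 3847 bp in Control, 2702 and 2887 bp in KO1 and 4412 and 3380 bp in KO2 (KO1 change −0.56 ± 0.14, adjusted p = 0.0986).

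Inside the genes H3K4me3 covered fewer bases in the knockouts, a sum that was not tested. Summed over the Zfp genes, H3K4me3 within 2 kb of the listed start covered 140 and 139 kb in Control, 134 and 132 kb in KO1, and 135 and 128 kb in KO2. In the body more than 2 kb from both ends it covered 152 and 149 kb in Control, 115 and 110 kb in KO1, and 109 and 86.3 kb in KO2. The number of genes with such interior H3K4me3 was 51 in each Control library, 48 or 49 in KO1 and 47 or 51 in KO2, so that the covered length went down and the number of genes stayed within 4. H3K27ac was higher in both places, from 28.3 and 31.0 kb at the start in Control to 41.9 and 38.1 kb in KO1 and 87.4 and 92.9 kb in KO2, and from 17.0 and 19.7 kb in the interior to 29.5 and 28.8 kb and then to 63.9 and 61.3 kb. The total length of peaks over the genome moved with these sums, from 58.2 and 56.4 Mb of H3K4me3 in Control libraries to 46.6 and 45.3 Mb (KO1) and 50.05 and 41.7 Mb (KO2), and from 14.4 and 14.6 Mb of H3K27ac to 19.6 and 17.5 Mb and to 37.0 and 35.5 Mb. Its part in them was not tested. For the 13 genes with an inner listed start, the start window can overlap the interior.

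**Figure D4:**
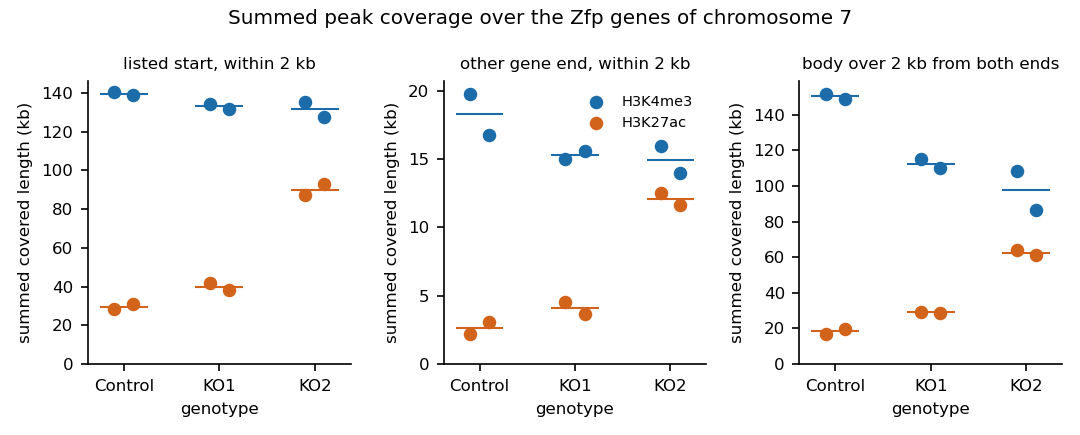
Summed covered kb over the Zfp genes of chromosome 7 within 2 kb of the listed start, within 2 kb of the other gene end, and in the body more than 2 kb from both ends, with 1 point per library and a bar at the mean of 2 libraries. H3K4me3 falls from about 150 kb to between 86.3 and 115 kb in the interior and stays between 128 and 140 kb at the start, while H3K27ac is highest in KO2 in all 3 places.

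Over gene bodies, 17 of the 92 tested Zfp genes fell and 3 rose in H3K4me3 with both lines averaged. Of all 13923 genes tested, 20.7% fell and 2.54% rose, and the median change was −0.12 over the Zfp genes, −0.20 over those of other chromosomes and −0.15 over all genes. In KO1 9 fell and 1 rose (background 11.4% and 1.15%), and in KO2 19 fell and 2 rose (20.9% and 3.83%). After quantile normalization these splits became 1 lower and 3 higher in KO1 (4.001% and 3.76% of all genes) and 3 lower and 6 higher in KO2 (9.65% and 10.5%). With both lines averaged the split turned to 2 lower (Zfp710 and Zfp84) and 7 higher (Zfp536, Zfp59, Zfp607b, Zfp74, Zfp936, Zfp940 and Zfp975), beside 8.001% lower and 8.43% higher of all genes. The total of 20 called genes was 0 without Control replicate 1, 4 without Control replicate 2, 11 and 10 without KO1 replicate 1 and KO1 replicate 2, 16 without KO2 replicate 2 and 25 without KO2 replicate 1.

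Zfp710 (mm10 chr7:80024814-80092751, plus strand) had the broadest H3K4me3 in its body of the genes named here. It covered 25390 and 24989 bp in Control, 14464 and 14495 bp in KO1, and 15501 and 11437 bp in KO2, a mean change of −0.84 ± 0.13 (SE; adjusted p = 0.00821). The loss was uneven along the gene. In the first block, which begins at the start and spans 14002 bp, coverage was 12023 and 11768 bp in Control and between 9298 and 11128 bp in the knockouts. In the next block (chr7:80040105-80075609) it was 11714 and 11834 bp in Control, 3628 and 3764 bp in KO1, and 3347 and 1469 bp in KO2. The listed starts of Gm21057 and Gm51449 lie in that block or within 500 bp of it. H3K27ac in the body of Zfp710 rose from 2514 and 2461 bp in Control to 3499 and 2858 bp in KO1 and 10287 and 11372 bp in KO2 (mean change 1.11 ± 0.11, adjusted p = 0.00149), most of it in the first part of the gene, where it reached 7070 and 7920 bp in KO2. The H3K4me3 call was lost without either Control library (adjusted p between 0.00114 and 0.0889 over the 6 leave-outs).

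Zfp568, a KRAB zinc finger gene whose product represses a placental transcript of Igf2 in mouse, also had less H3K4me3 in its body in the knockouts. It covered 11262 and 12041 bp in Control, 7920 and 5293 bp in KO1, and 7428 and 5819 bp in KO2 (mean change −0.79 ± 0.18, adjusted p = 0.0237), a call lost with equal peak numbers (adjusted p = 0.0504) and without Control replicate 1, Control replicate 2 or KO1 replicate 2 (adjusted p between 0.0213 and 0.146 over the 6 leave-outs). H3K27ac was 1228 and 805 bp in Control, 759 and 715 bp in KO1, and 6703 and 4326 bp in KO2. It rose in KO2 by 1.97 ± 0.23 (adjusted p = 0.000816) and exceeded KO1 by 2.25 ± 0.23 (adjusted p = 0.00123), while in KO1 its change was −0.28 ± 0.23 (adjusted p = 0.521). At the ends of Zfp568 H3K4me3 was between 3881 and 4507 bp in all libraries.

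A fall of H3K4me3 with a rise of H3K27ac, both called with the lines averaged, was found in the bodies of 11 Zfp genes: Zfp180, Zfp260, Zfp296, Zfp524, Zfp568, Zfp574, Zfp592, Zfp626, Zfp710, Zfp787 and Zfp850. They were 16.4% of the 67 Zfp genes tested for both marks, against 12.6% of all 9809 such genes. Zfp296 is counted here, but it passed the H3K27ac filter only through KO2, so that its H3K27ac call supports nothing. At Zfp592 H3K4me3 went from 4117 and 3754 bp in Control to 1834 and 2394 bp in KO1 and 2639 and 2058 bp in KO2, and H3K27ac from 495 and 536 bp to 415 and 964 bp and then to 3122 and 2838 bp. At Zfp787 H3K4me3 went from 9995 and 9875 bp to 7201 and 6934 bp and 7292 and 5508 bp, and H3K27ac from 585 and 539 bp to 718 and 740 bp and 2686 and 2929 bp. At Zfp850 H3K27ac was between 560 and 601 bp in the Control and KO1 libraries and 2490 and 2787 bp in KO2, while H3K4me3 fell from 3889 and 2908 bp in Control to 1830 and 2017 bp in KO1 and 2639 and 2418 bp in KO2. For both marks, the libraries of KO2 and Control did not overlap in any of these 3 genes. That follows in part from choosing genes called in the same libraries, and it supports nothing further. Of all 21887 genes, 31.8% had both KO2 libraries below both Control libraries for body H3K4me3. For body H3K27ac, 49.4% had both KO2 libraries above both Control libraries. After quantile normalization the H3K4me3 change at Zfp787 and the H3K27ac changes at Zfp260 and Zfp574 changed sign, and Zfp710 was the one of the 11 that remained called for H3K4me3.

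Zfp141, Zfp977, Zfp976 and Zfp975 lie next to each other on the minus strand, from base 42473386 to base 42692810. The first 3 lost H3K4me3 over their bodies in KO2. Zfp976 went from 11901 and 9269 bp in Control to 6812 and 6868 bp in KO1 and 5058 and 3687 bp in KO2 (KO2 change −1.19 ± 0.18, adjusted p = 0.00671). Zfp977 went from 8824 and 8658 bp to 7820 and 8391 bp and 5332 and 3899 bp (−0.87 ± 0.16, adjusted p = 0.0118). Zfp141 went from 11622 and 11857 bp to 11981 and 9183 bp and 7130 and 4212 bp (−1.03 ± 0.24, adjusted p = 0.0256). In each of these 3 genes the KO2 libraries lay below all others, which follows in part from their calls in the same libraries. With both lines averaged, none of the 3 was called after quantile normalization, and the change at Zfp977 was then 0.047. None of the 3 was called between KO2 and KO1, where limma called no Zfp gene over gene bodies and 2.38% of all genes (1.32% higher and 1.06% lower). An unadjusted p under 0.05 was found there for 15 of the 92 (16.3%) and 19.1% of all genes.

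Their neighbour Zfp975 went the other way in KO1. H3K4me3 in its body covered 3939 and 4973 bp in Control, 9573 and 8210 bp in KO1, and 4817 and 4996 bp in KO2. The KO1 change was 0.93 ± 0.15 (adjusted p = 0.0163), the KO2 change was 0.13 ± 0.15 (adjusted p = 0.561), and the difference of KO2 from KO1 was −0.79 ± 0.15 (adjusted p = 0.0528). H3K27ac rose in both lines, from 1040 and 1153 bp in Control to 3379 and 2422 bp in KO1 and 2658 and 2447 bp in KO2 (1.08 ± 0.17 with adjusted p = 0.026, and 0.94 ± 0.17 with adjusted p = 0.00348). Zfp141 was the one Zfp gene called lower in KO2 than in KO1 for body H3K27ac, beside 43 called higher (background 0.334% lower and 58.9% higher). Without the 17 genes that passed the filter only through KO2, 29 of 50 were called higher. After quantile normalization 3 were lower and 7 higher (5.73% and 7.70% of all genes). Zfp141 had 1193 and 849 bp in Control, 3065 and 2757 bp in KO1, and 2038 and 1859 bp in KO2. There KO2 lay below KO1 by −0.48 ± 0.16 (adjusted p = 0.0387). The block that set Zfp141 apart (chr7:42495985-42499059), 8.23 kb from its start, held 788 and 529 bp in Control, 2303 and 2210 bp in KO1, and 1176 and 1010 bp in KO2.

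**Figure D5:**
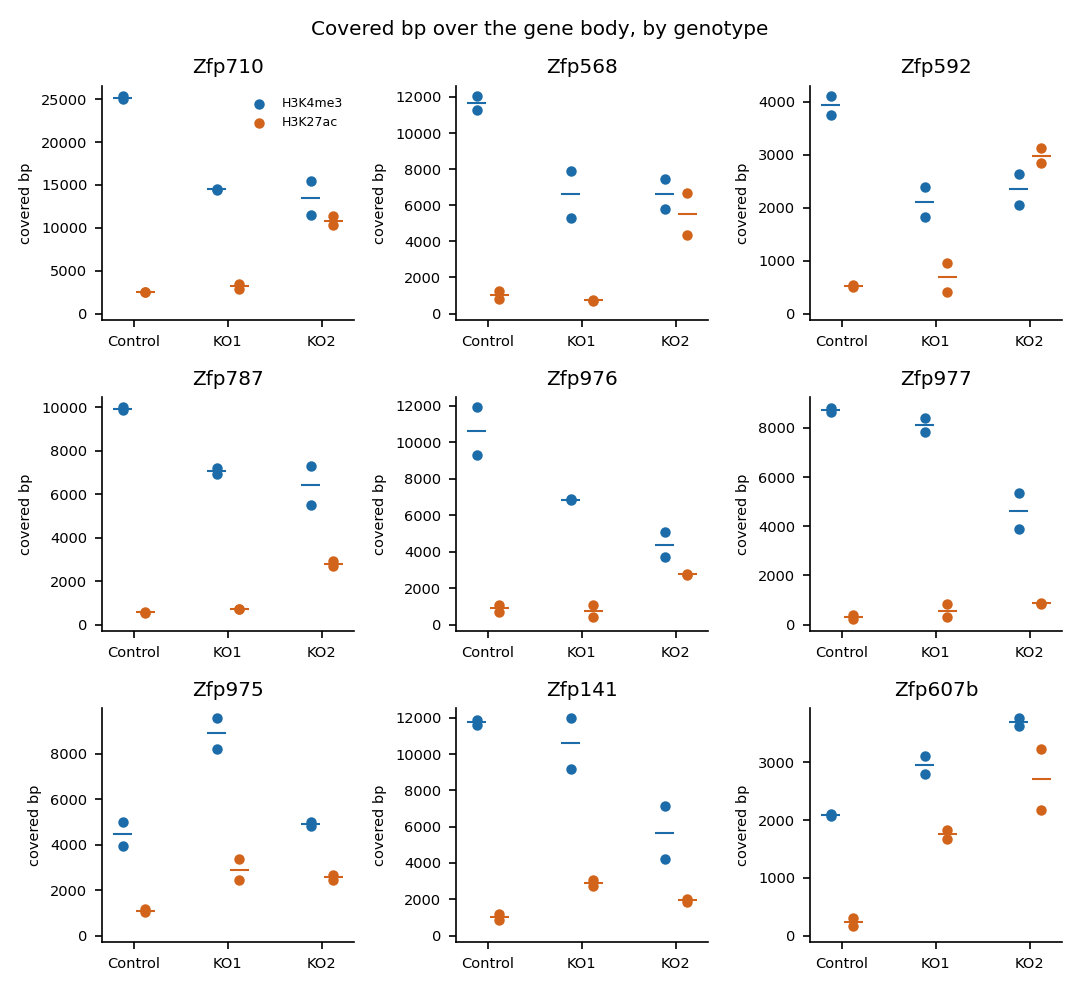
Covered bp over the gene body at 9 named Zfp genes, with 1 point per library and a bar at the mean of the 2 libraries of a genotype (H3K4me3 and H3K27ac in different colours). Zfp710, Zfp568, Zfp592 and Zfp787 combine a fall of H3K4me3 with a rise of H3K27ac in KO2, Zfp975 has its highest H3K4me3 in KO1 (8210 and 9573 bp), and Zfp607b rises in both marks.

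H3K27ac over gene bodies rose with both lines averaged at 43 of 67 tested Zfp genes, with none lower (background 55.8% of 9890 genes, 55.6% higher and 0.202% lower). In KO2 58 rose and none fell (background 77.8% and 0.222%), which quantile normalization turned into 14 higher and 5 lower (12.9% and 13.7% of all genes). Of the 67 genes, 17 averaged under 200 bp over the Control and KO1 libraries and passed the filter only through KO2. Their calls support nothing. Without them 32 of 50 rose with both lines averaged and 43 of 50 in KO2. In KO1 5 rose and none fell (background 5.97%, 5.72% higher and 0.243% lower): Zfp607b, Zfp93, Zfp141, Zfp975 and Zfp764. Of these, Zfp764 went from 0 and 0 bp in Control to 578 and 309 bp in KO1 and 1235 and 945 bp in KO2. With both lines averaged, quantile normalization left 4 of the 43 called genes higher (Zfp607b, Zfp710, Zfp764 and Zfp93, beside 7.21% of all genes) and none lower (5.53%). An equal number of peaks per list left 22 of 59 tested (24.0% of all genes), and the body beyond 2 kb from the ends gave 21. The count was 24 without KO2 replicate 1, 26 without KO2 replicate 2 and 29 without Control replicate 1. Zfp382 went from 0 and 0 bp in Control to 570 and 156 bp in KO1 and 1667 and 1085 bp in KO2, a mean change of 1.32 ± 0.23 given as a description, since it passed the filter only through KO2. Zfp536, the longest gene named here, had body H3K27ac of 3522 and 4655 bp in Control, 6022 and 6164 bp in KO1, and 8624 and 8479 bp in KO2 (mean change 0.76 ± 0.12, adjusted p = 0.00427), although its ends had none.

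Zfp607b had the largest rise of body H3K27ac and was one of the 3 Zfp genes with a rise of body H3K4me3, beside Zfp975 and Zfp575. H3K27ac covered 301 and 164 bp in Control, 1830 and 1674 bp in KO1, and 2181 and 3239 bp in KO2 (mean change 1.87 ± 0.17, adjusted p = 0.00121). H3K4me3 covered 2075 and 2102 bp in Control, 3105 and 2791 bp in KO1, and 3762 and 3628 bp in KO2 (mean change 0.55 ± 0.09, adjusted p = 0.00913). Most of the change lay inside the gene. In the block chr7:27692106-27695766, centred 19.3 kb from the start, H3K4me3 was at 0 bp in both Control libraries and covered 864 and 1085 bp in KO1 and 1644 and 1395 bp in KO2. No other listed RefSeq start lies within 500 bp of that block. The H3K27ac block over the same place (chr7:27691708-27695759) held 301 and 164 bp in Control, 1830 and 1674 bp in KO1, and 1362 and 2283 bp in KO2, whereas H3K27ac within 2 kb of the gene ends was 0 bp in Control and KO1 and 479 and 878 bp in KO2. Both body calls kept their direction without any 1 library. The H3K27ac call held in all 6 leave-outs (adjusted p between 0.00637 and 0.0151), and the H3K4me3 call was lost without either Control library (adjusted p between 0.0141 and 0.0838).

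A list of 20 genes of KRAB zinc finger silencing was read with the same measures. It includes the partners Trim28, Setdb1, the HP1 genes Cbx1, Cbx3 and Cbx5 and the HUSH gene Mphosph8. The zinc finger genes Zfp57, Zfp809 and Zfp932 are also on the list, so that the counts for its genes are not of partners alone. With both lines averaged, 0 of 18 tested were called in H3K4me3 at their ends, where 4% of all genes were called. In H3K27ac 10 of 17 (63.7% of all genes) rose and none fell. In KO2 15 of the 17 rose (86.7% of all genes), and in KO1 limma called none (1.74% higher of all genes). Trim28 itself carried 2591 and 2604 bp of H3K27ac in Control, 2233 and 1797 bp in KO1 and 5741 and 4416 bp in KO2, a KO2 change of 0.84 ± 0.14 (SE; adjusted p = 0.00176), and its H3K4me3 was between 3619 and 4319 bp in all libraries. Over their bodies 11 of 20 fell in H3K4me3 (20.7% of all genes) and 13 of 20 rose in H3K27ac (55.6% of all genes) with both lines averaged. This list was read under the main setting only. How its counts depend on quantile normalization or on single libraries was not tested. The median changes at gene ends in KO2 were −0.06 for H3K4me3 and 0.63 for H3K27ac, beside −0.06 and 0.82 over all genes tested.

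Along the chromosome, the rise of H3K27ac in KO2 was not tied to 1 group of genes. Among the groups with at least 5 tested genes, the median KO2 change at gene ends was highest in the group from Zfp551 to Zfp446 (1.35 over 5 genes, all called) and lowest in the group from Zfp553 to Zfp646 (0.65 over 9 genes, 8 of them called). The group from Zfp84 to Zfp146 had 1.25 over 10 genes, all called, and that from Zfp607b to Zfp36 1.09 over 7 genes, all called. Of all genes tested, 86.7% were called higher in KO2. Each group named so far includes genes that passed the filter only through KO2. These are Zfp606 and Zfp324, then Zfp768, Zfp747 and Zfp764, then Zfp420 and Zfp382, and Zfp607b and Zfp607a, in the order above. Their calls support nothing, and the group medians were not recomputed without them. In KO1 the group medians ran from 0.06 to 0.56, and the single called gene, Zfp93, lies in the group from Zfp180 to Zfp526.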

How the data were processed

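Chromatin of mouse embryonic stem cells was profiled for H3K4me3 and H3K27ac in 12 libraries. The 6 input samples were not analysed here. Per the submitters' processing notes, CASAVA, Trimmomatic 0.38, Bowtie 1.2.2 and MACS2 were used with build mm10; those notes give no order and no MACS2 version. The authors deposited 1 peak list per library. A fold enrichment (a ratio), a −log10 p and a −log10 q were deposited for every peak, and all deposited peaks had q under 0.01. Whether input or the spike-in chromatin named in the labels' protocols entered peak calling is unknown here. The lists hold no read counts, so depth is unknown and no counting interval could be given.

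Genes and starts came from RefSeq tables of GRCm38.p6, the assembly of mm10. Covered bp were analysed as log2(bp + 500), which understates changes of low values, with limma 3.58.1 in R 4.3.3 (lmFit, eBayes with a trend) over the 6 libraries of a mark. Genes needed a mean of 200 bp. P-values were Benjamini-Hochberg adjusted over all genes tested, with a threshold of 0.05. The fit and the coverage code were tested on simulated data. Alternatives were quantile normalization, no filter, a pseudocount of 100 bp, percent of the region, equal peak numbers, −log10 q of at least 5, 1 kb windows, the start window or interior only, a replicate block, and leaving out each library.

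Genes were named by rule: up to 8 called genes with the largest change per comparison at gene ends and up to 4 over bodies (by value where under 4 were called), the 5 with the most covered bp in Control, genes with opposite calls, and Zfp36, Zfp143, Zfp568, Zfp819, Zfp507 and Zfp536. The genes, lists and rules were chosen with earlier results of these data known.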

Additional observations from a re-analysis of the deposited data

Results flagged for a closer look

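The 2 knockout lines differed from each other in H3K27ac at gene ends at 49 of the 66 tested Zfp genes (limma, KO2 minus KO1, adjusted p under 0.05), all higher in KO2. Of all genes tested, 68.7% were higher and 0.0528% lower in KO2, so that the count is not particular to zinc finger genes. The largest differences on the log2 scale were 1.96 at Zfp607a, 1.66 at Zfp78, 1.58 at Zfp526, 1.40 at Zfp420, 1.36 at Zfp975, 1.32 at Zfp296, 1.30 at Zfp324 and 1.29 at Zfp780b. KO2 lists held between 61383 and 65398 H3K27ac peaks and KO1 lists between 39048 and 40210, and the values were recomputed under a pair of settings that bear on it. After quantile normalization 5 genes were higher in KO2 and 2 lower, beside the shares of all genes given above. With equal numbers of peaks per list, 40 of the 49 remained called. Of the 66 genes, 16 passed the filter only through KO2, and 36 of the other 50 were called higher. Zfp607a, Zfp78, Zfp420, Zfp975, Zfp296 and Zfp324 are among the 16, so that their differences are descriptions and support nothing. Groups of 2 libraries are too small for a check of single outlying libraries.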

How the results depend on the processing

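Read depth is unknown, groups hold 2 libraries, and leaving 1 out leaves a lone library assumed to vary like the others. Of 5929 alternative values for 412 named-gene values, 5367 kept direction and side of the threshold, 483 lost their call, 53 gained one and 26 changed sign; the causes were not tested. For Zfp genes called in H3K4me3 at gene ends, both lines averaged gave 3, with 0 at −log10 q of at least 5, 0 with 1 kb windows, 1 (lower) over the start window, an alternative chosen after seeing the data, and 0 to 2 with a library left out. KO1 gave 0, 1 with equal peak numbers and 0 to 0 with a library left out; KO2 gave 2, then 0, 0, 1 (lower) and 0 to 1 under the same 4 settings as the average, the 1 of the last range being lower without KO2 replicate 1; KO2 minus KO1 gave 0 throughout. H3K4me3 over gene bodies gave 20, 9 after quantile normalization (7 higher), 13 at −log10 q of at least 5 and 0 to 25 with a library left out. H3K27ac at gene ends gave 55 with both lines averaged, 3 after quantile normalization, 32 with equal peak numbers and 22 to 47 with a library left out; 1 in KO1, 4 with a pseudocount of 100 bp and 0 as percent of region, with equal peak numbers, 1 kb windows, the start window or any library left out; 59 in KO2, 10 after quantile normalization and 39 to 59 with a library left out; and 49 for KO2 minus KO1, 7 and 14 to 52. H3K27ac over gene bodies gave 43, 4, 22 with equal peak numbers, 21 in the interior and 24 to 45 with a library left out.

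Replicate numbers did not pair the libraries: the correlations of same-numbered deviations lay between −0.0147 and 0.0328. With a replicate block, the calls were 2 in place of 1 for H3K27ac at gene ends in KO1 (Zfp524 added), and 3, 0, 3, 0 and 21 for H3K4me3 and 55, 59, 50 and 45 for the other H3K27ac counts in the order above.

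The 26 sign changes all came from quantile normalization, on the log2 scale. For H3K27ac at gene ends in KO2 the values became −0.11 at Zfp141, −0.17 at Zfp143, −0.26 at Zfp260, −0.080 at Zfp428, −0.69 at Zfp507, −0.29 at Zfp553, −0.21 at Zfp646, −0.21 at Zfp668, −0.25 at Zfp764 and −0.57 at Zfp819. With both lines averaged they became −0.13 at Zfp143, −0.0022 at Zfp607b, −0.12 at Zfp646 and −0.12 at Zfp668. For KO2 minus KO1 they became −0.070 at Zfp143, −0.013 at Zfp568, −0.032 at Zfp592, −0.18 at Zfp646, −0.18 at Zfp668 and −0.52 at Zfp819. Over gene bodies with both lines averaged, H3K27ac became −0.12 at Zfp260, −0.13 at Zfp574 and −0.21 at Zfp936, and H3K4me3 became 0.033 at Zfp787, 0.31 at Zfp936 and 0.047 at Zfp977.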

Other observations

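In the body of Zfp936, whose ends lie far from its listed start, H3K4me3 covered 11401 and 11055 bp in Control, 11047 and 11060 bp in KO1, and 8046 and 7552 bp in KO2 (KO2 change −0.50 ± 0.11 (SE), limma adjusted p = 0.0205). With both lines averaged, by contrast, body H3K4me3 at Zfp936 was called higher after quantile normalization (log2 change 0.31). A small block of Zfp936 lay 54.7 kb from the listed start. It held 653 and 292 bp in Control, 492 and 960 bp in KO1 and 0 bp in both KO2 libraries. Zfp592 held an interior block (chr7:81019973-81023465) in which H3K4me3 covered 618 and 1082 bp in Control, 333 and 884 bp in KO1, and 1517 and 1004 bp in KO2, while the rest of its interior H3K4me3 was lower in the knockouts.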
